A study of Mus musculus with 5 samples.

Results

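Cytosolic ribosomal protein genes gave between 23.7 and 28.4% of all transcripts counted in mouse EpiSCs (epiblast stem cells, pluripotent cells derived from the epiblast of the implanted embryo) that had been differentiated under Wnt and BMP signals. These genes were chosen by symbol alone, as genes named Rps or Rpl followed by a digit, leaving out ribosomal S6 kinases and pseudogenes. Of the 32285 genes listed, 82 met this rule. They comprised 73 core members, 30 for proteins of the small subunit (Rps) and 43 of the large subunit (Rpl), and 9 related genes, which are paralogs, retrogenes and a binding partner. The rule does not match some ribosomal protein genes with other names, such as Rpsa, Fau, Rack1 and the stalk genes Rplp0, Rplp1 and Rplp2.

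EpiSCs of a 129 background and of 1 line were cultured for 3 days in N2B27 medium with 1 µM of the Wnt agonist CHIR99201 (Chi) and 8 ng/ml BMP4 in every condition. Libraries were made with 0, 0.75, 3 or 12 ng/ml FGF2, or with 30 nM of the FGF receptor inhibitor AZD4547 (FGFRi), for which no FGF2 dose is stated. The 5 libraries hold counts of unique molecular identifiers (UMIs) per gene and cell barcode, with 1 library per condition and no replicates. Ratios between libraries are therefore given without a p-value, their 95% intervals cover counting error only, and the spread between cultures is unknown.

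Barcodes with at least 2500 detected genes and at most 10% mitochondrial UMIs were used, which left between 1696 and 2725 cells per library and 10653 in all, with 321559590 UMIs. Median depth was 24408 UMIs per cell with FGFRi and between 27452 and 29662 in the FGF2 libraries. Only 7 of 10646 barcode sequences occurred in 2 libraries. Of the markers checked, T rose from 0.8 CPM (UMIs per 1000000) with FGFRi to 208.4 CPM at 12 ng/ml. Hand1, another streak and mesoderm marker, was at 63.5 CPM with FGFRi. Along the FGF2 series Hand1 fell from 85.7 CPM without FGF2 to 32.7 CPM at 12 ng/ml. The summed endoderm markers stayed between 0.4 and 3.4 CPM, and the blood marker Ptprc was near 0 throughout.

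Ribosomal proteins are made in nearly equal numbers, since each ribosome holds a single copy of most of them. Their mRNAs are among the most abundant in growing cells and carry a 5′ terminal oligopyrimidine (TOP) tract, a stretch of C and T at the start of the transcript through which mTOR and Larp1 control their translation. Production of ribosomes is tied to cell growth through Myc and mTOR, and free ribosomal proteins such as Rpl5 and Rpl11 bind Mdm2 and so stabilize p53.

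The share of UMIs from ribosomal protein genes was lowest with FGFRi and highest at the lowest FGF2 dose. It was 23.7% with FGFRi (exact binomial 95% interval 23.74 to 23.76%), 26.9% without FGF2, and 28.4%, 27.8% and 27.4% at the doses of 0.75, 3 and 12 ng/ml. The counting intervals of the 5 libraries did not overlap, but they take every UMI as independent, although UMIs are grouped in cells. The 95% interval of the median cell's share was 27.40 to 27.96% without FGF2. At 12 ng/ml it was 27.81 to 28.05%, which overlaps. In the summed share, the gap between FGFRi and 0 ng/ml was wider than the whole range of the 4 FGF2 libraries. From 11.01 to 13.1% of UMIs came from small subunit genes and from 12.4 to 14.9% from large subunit genes. Small subunit genes made up between 46.4 and 46.9% of core UMIs in all 5 libraries, so the balance of both subunits varied by less than 1 percentage point. The 9 related genes contributed between 0.283 and 0.299%.

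Single cells showed the same order as the summed counts. The median cell had 24.2% ribosomal protein UMIs with FGFRi (5th to 95th percentile 18.3 to 31.6%), 27.7% without FGF2 (20.7 to 34.8%), 28.9% with 0.75 ng/ml (23.0 to 34.7%), 28.4% with 3 ng/ml (23.0 to 33.2%) and 27.9% for the highest dose (22.6 to 32.7%). Interquartile ranges were 5.50 and 5.68 percentage points with FGFRi and without FGF2, and 4.02 percentage points at 12 ng/ml. The distributions overlapped widely, and the highest cell of each library had between 38.5 and 41.7%. Barcodes that failed the filter had far lower shares, with medians between 4.79 and 13.05%, and most of them had too few genes rather than too many mitochondrial UMIs.

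**Figure D1:**
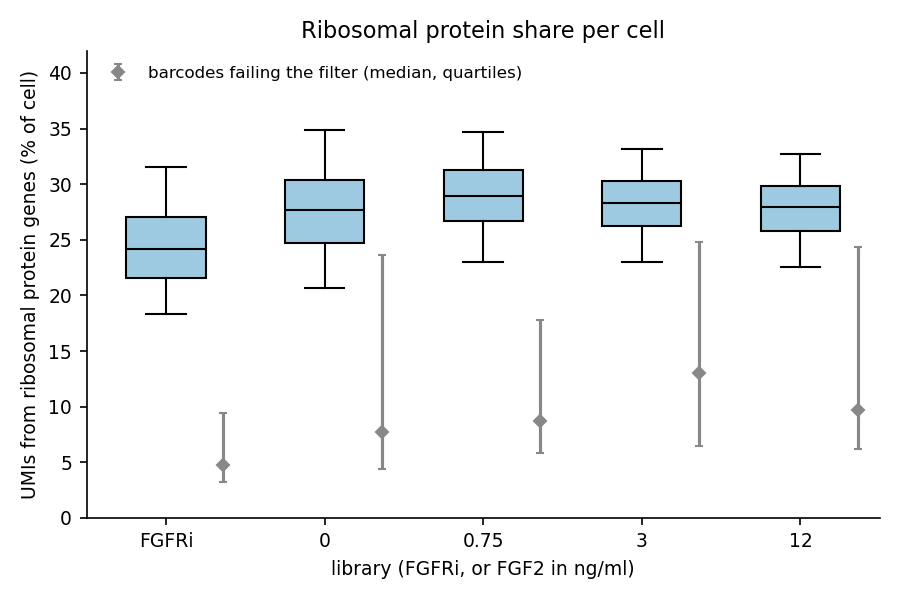
Share of each cell's UMIs (in %, vertical axis) from the 82 ribosomal protein genes by library (horizontal axis). Boxes show the median and quartiles of retained cells and whiskers the 5th and 95th percentiles, and grey diamonds with bars show the median and quartiles of barcodes that failed the filter. The FGFRi box lies lowest, with a median of 24.2%, and the median of the failed barcodes lies below the 5th percentile of retained cells in every library, while their upper quartile reaches into the lower whisker at 0, 3 and 12 ng/ml.

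Within a library, cells with more UMIs had a smaller ribosomal protein share. Spearman's rho between share and total UMIs ranged from -0.44 to -0.35 over the 5 libraries, and that with the mitochondrial share from 0.10 to 0.22. These are descriptions over the cells of 1 library each, in which the total count enters both measures. In cells of 20000 to 30000 UMIs, the summed share was 24.2% with FGFRi, 28.2% without FGF2, and 29.4, 29.0 and 28.4% for the rising doses of FGF2. FGFRi cells were thus also lowest among cells of similar depth.

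Cells in these cultures differ in their cadherins, E-cadherin (Cdh1) marking epithelial and N-cadherin (Cdh2) mesodermal cells. Cells with Cdh1 UMIs and none of Cdh2 were set against cells with Cdh2 UMIs and none of Cdh1. Without FGF2, the median ribosomal protein share was 28.8% in 734 Cdh1-only and 27.7% in 486 Cdh2-only cells. At 0.75 ng/ml it was 29.8% in 1054 and 28.6% in 1058 cells, and with 3 ng/ml 29.5% in 443 and 28.3% in 1146 cells. Cdh1-only cells were thus higher by between 1.104 and 1.26 percentage points at these doses. With FGFRi the difference was 0.11 percentage points (617 against 625 cells), and at 12 ng/ml it was -0.097 percentage points (340 against 1412 cells). Every cell was also thinned to 5000 UMIs before it was classed. The difference was then 1.01, 0.821, 0.203 and -0.927 percentage points along the FGF2 series and 0.049 with FGFRi. When classed at equal depth, Cdh1-only cells thus had a smaller excess at 3 ng/ml and a lower share than Cdh2-only cells at 12 ng/ml. The classes rest on a few UMIs and so depend on depth. Cells with UMIs of both genes were deepest (median 31058 to 39233 UMIs) and had lower shares of 22.8 to 28.0%.

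Levels of core members spanned a wide range and kept a similar order in all libraries. Each UMI tags the 3′ end of a transcript, so levels were not divided by transcript length. Rps20, Rpl13, Rps27a (a fusion of ubiquitin and a small subunit protein) and Rps12 were among the highest, with means over the 5 libraries of 7310, 6462, 6223 and 5657 CPM. At the low end, Rpl31, Rpl35, Rpl4 and Rpl7a averaged 1412, 1794, 1861 and 1870 CPM. All 72 core members other than Rpl29 had over 1000 CPM in every library. Between libraries, the log2 CPM of the 73 core members correlated with Pearson's r of 0.953 (FGFRi and 12 ng/ml) to 0.998. This r includes Rpl29, which lies far below the rest. By rank, Spearman's rho ran from 0.864 (FGFRi and 12 ng/ml) to 0.994 (0 and 0.75 ng/ml).

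Rpl29, a large subunit gene, stood apart with 62.4 CPM with FGFRi and 85.1, 96.6, 110.5 and 103.2 CPM along the FGF2 series. Within the last 300 bases of its transcripts, 63.5% of 50-base stretches also occur in transcripts of other genes, and these belong to 82 genes, the most for any member. The search covered transcripts of all annotated genes, including pseudogenes that may not be among the counted genes. Sharing with counted genes alone was not computed. Reads that match several counted genes are usually not counted, so the level of a member with many counted copies is uncertain. How many reads were lost in this way was not measured. Rpl36a, with 100% of stretches shared, and Rps2, with 73.4% shared with 61 genes, averaged 1996 and 5001 CPM. The part of shared sequence in the level of Rpl29 was not tested. Among all core members, 65 of 73 shared at least 1 such stretch with another gene, and the median member shared 50.4%.

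From FGFRi to 0 ng/ml FGF2, nearly all core members were slightly higher. The median log2 ratio over 73 core members was 0.22 (quartiles 0.11 and 0.27), while it was 0.01 over the 3283 genes that reached 50 CPM in either of the libraries. Counting intervals lay above 0 for 67 core members and below 0 for 6. At the depth of these members the intervals are narrow, and the same count was not made over all genes. By the rule of size used here, at least 25% higher or at least 20% lower among genes tested, 9 core members were higher and 0 lower. Of all genes tested, 20.4% were higher and 23.4% lower by this rule, and 6.46% differed by 2-fold or more in either direction, which 0 core members did. The interquartile range of the log2 ratios was 0.16 over the core members and 0.56 over all genes.

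The 9 members past the rule of size came from both subunits. Rpl29 had a log2 ratio of 0.45 (95% interval 0.38 to 0.51). Rps18, a protein of the small subunit head, rose from 4094 to 5495 CPM, which is 1.34-fold (log2 0.42, 0.42 to 0.43). Rps6, the substrate of S6 kinase downstream of mTOR, rose from 1890 to 2445 CPM (log2 0.37, 0.36 to 0.38). Rpl4, which lines the exit tunnel, and Rps2 both rose by 0.36 on the log2 scale, to 1842 and 4747 CPM. Rpl18, Rpl12, Rpl7a and Rpl14 were the others, at log2 0.34 to 0.36.

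At the other end, Rps29 was 4502 CPM with FGFRi and 4084 CPM without FGF2 (log2 -0.14, 95% interval -0.15 to -0.13). Rpl38, the gene mutated in the Tail short mouse, was at 3019 and 2769 CPM (log2 -0.12, -0.13 to -0.11). Rps19, a gene mutated in Diamond-Blackfan anemia, was at 4721 and 4624 CPM, and Rpl37a and Rpl39 also had a log2 ratio of -0.03. Rps29 and Rpl38 lay at least 20% below the median ratio of the core members, and 0 members lay at least 25% above it, with 39.2% and 9.59% of all genes beyond these limits.

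Sequences at the transcription start are shown for members at both ends of this range and for members that differ from the rest. For these 12 members, the 15 bases before and 15 bases from the annotated start are given from RefSeq on GRCm38.p6, with a run of at least 5 C or T that covers the start in capitals.
Rps18, chr17:33955651-33955680, minus strand: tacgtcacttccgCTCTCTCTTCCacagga
Rps6, chr4:86857353-86857382, minus strand: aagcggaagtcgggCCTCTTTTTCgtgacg
Rps2, chr17:24720048-24720077, plus strand: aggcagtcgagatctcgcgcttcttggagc
Rpl38, chr11:114668565-114668594, plus strand: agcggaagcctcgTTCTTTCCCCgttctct
Rps27, chr3:90213634-90213663, minus strand: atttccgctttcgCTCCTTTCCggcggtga
Rps28, chr17:33824548-33824577, minus strand: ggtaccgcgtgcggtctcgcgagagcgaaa
Rpl39, chrX:37085208-37085237, minus strand: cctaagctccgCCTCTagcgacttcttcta
Rpl37a, chr1:72711245-72711274, plus strand: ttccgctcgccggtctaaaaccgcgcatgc
Rps26, chr10:128626492-128626521, minus strand: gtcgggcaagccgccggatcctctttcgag
Rps27l, chr9:66946071-66946100, plus strand: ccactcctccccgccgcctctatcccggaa
Rpl22l1, chr3:28805493-28805522, plus strand: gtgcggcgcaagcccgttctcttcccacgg
Rpl7l1, chr17:46782642-46782671, minus strand: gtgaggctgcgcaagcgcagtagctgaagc
A run lay at the start of Rps18, Rps6, Rpl38, Rps27 and Rpl39, of which Rps18 and Rps6 were among the members that rose most from FGFRi to 0 ng/ml FGF2 and Rpl38 and Rpl39 among the lowest. Only the sense strand at the annotated start was searched, and 10.1% of all 32851 promoter windows hold such a run there. Runs that lie near the annotated start without covering it, as just downstream of that of Rps26, are not in capitals. As 54 of 73 core members (74.0%) had a window, fewer than the share needed for a comparison, no share was computed over the core members.

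Other genes of the ribosome and of translation were compared over the same step, where 20.4% of all genes tested were higher and 23.4% lower. These lists hold few genes, so their counts can hardly be read against these shares. The 7 ribosomal protein genes that the rule does not match had a median log2 ratio of 0.26, close to the core members, and 2 of 7 were at least 25% higher, Rplp0 (0.40) and Rpsa (0.35). Of 5 elongation factors, 1 was higher, Eef1g (0.40), and the median was 0.28. Of 9 other TOP mRNAs, 4 were higher (Npm1, Pabpc1, Eif4b and Nap1l1, at log2 0.61 to 0.65), while the translation initiation factor genes Eif3f and Eif3h were both at -0.01 and Tpt1 at -0.07. The 9 members mutated in Diamond-Blackfan anemia had 0 higher and a median of 0.17, and the 4 X-linked members had 0 higher and a median of 0.07.

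Ribosome biogenesis genes had larger ratios than the ribosomal protein genes themselves. All 15 (of 20 listed) that reached 50 CPM in either library were at least 25% higher without FGF2 than with FGFRi, with a median log2 ratio of 0.71. Ncl (nucleolin) rose from 1065 to 1844 CPM, Nop56 of the box C/D particles from 128.8 to 234.4 CPM (log2 0.86), and Dkc1, the pseudouridine synthase dyskerin, from 49.7 to 112.8 CPM (log2 1.18). Mycn was at 16.1 and 35.4 CPM, below the level needed for the rule. Of 59 mitochondrial ribosomal protein genes, 14 were higher and 2 lower, with a median of 0.18 (0.01 over all genes tested), and 49 lay above 0. Of all genes tested, 20.4% were higher and 23.4% lower, so only the number of higher genes was near its share over all genes. In the opposite direction, 4 of 4 p53 target genes tested were lower, against 23.4% of all genes tested. Among them, Cdkn1a, the CDK inhibitor p21, fell from 330.4 to 117.1 CPM (log2 -1.50). Vim, a mesenchymal marker, also fell from 1203 to 320 CPM. The part of these genes in the ribosomal protein values was not tested.

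**Figure D2:**
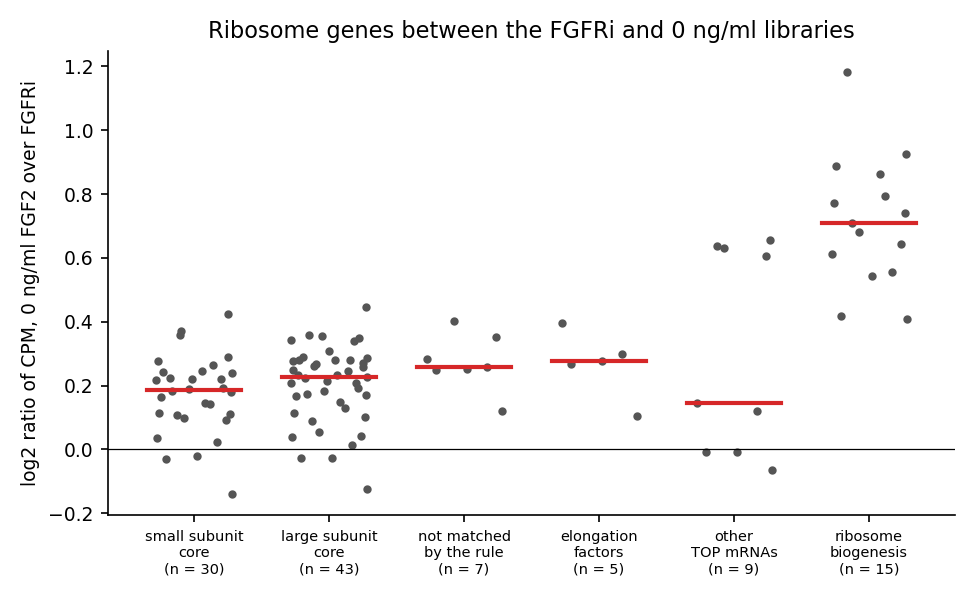
Log2 ratio of CPM without FGF2 over FGFRi (vertical axis) for genes reaching 50 CPM in either library, by gene list (horizontal axis), with 1 point per gene and the median as a red line. The core members of both subunits lie around medians of 0.19 and 0.23, and all 15 ribosome biogenesis genes lie above 0.4.

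Along the FGF2 series, core members moved less. From 0 to 0.75 ng/ml the median log2 ratio of all 3040 genes tested was 0.01. Over the core members it was 0.08, with 72 of 73 above 0. By the rule of size, 0 core members passed in either direction (of all genes tested, 2.99% were higher and 8.03% lower). From 0.75 to 3 ng/ml the median was -0.01, again with 0 past the rule (2.42% of genes higher, 3.45% lower), and from 3 to 12 ng/ml it was -0.02, also with 0 (0.974% higher and 0.974% lower). At 2-fold or more, these steps moved 1.51%, 0.432% and 0% of genes. Of the core members, 37 had their highest level with 0.75 ng/ml, 18 with 3 ng/ml and 14 with 12 ng/ml, and 61 had their lowest with FGFRi. The highest library exceeded the lowest by a median of 1.27-fold per member, with a range from 1.06-fold to 1.77-fold (Rpl29).

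Over the full range from 0 to 12 ng/ml, the median log2 ratio was 0.06, but the members spread in both directions. At least 20% lower were 5 of 73 core members, Rpl39, Rps29, Rps27, Rpl38 and Rps28, while 0 were at least 25% higher. Of the 3141 genes tested, 13.7% were lower, 9.68% higher and 4.14% changed by 2-fold or more. These 5 and Rpl37a lay at least 20% below the median ratio of the core members and 0 lay at least 25% above it, with 16% and 6.81% of all genes beyond these limits. The highest ratios were those of Rps2 (log2 0.30, 95% interval 0.29 to 0.31), Rpl29 (0.28, 0.23 to 0.33), Rpl12 (0.20, 0.19 to 0.20), Rpl3 (0.18, 0.17 to 0.19) and Rpl7a (0.17, 0.16 to 0.18). Of these, Rps2 and Rpl3 were higher at each step. Rps2 went from 3703 CPM with FGFRi over 4747, 5029 and 5678 to 5850 CPM at 12 ng/ml.

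The 5 members that fell encode some of the smallest ribosomal proteins. Rps29, a zinc-binding protein of the small subunit, was at 4502 CPM with FGFRi, and FGF2 doses in rising order gave 4084, 4268, 3533 and 3145 CPM. Rpl39, which sits in the exit tunnel, was at 3822, 3752, 3745, 3170 and 2885 CPM in the same order. Rpl38 was at 3019, 2769, 2772, 2426 and 2202 CPM. Rps29, Rpl39 and Rpl38 were thus highest with FGFRi, where most core members were lowest. Rps27 was at 3090, 3138, 3300, 2806 and 2479 CPM, and Rps28 at 3342, 3293, 3552, 2958 and 2629 CPM. For these members the drop came between 0.75 and 12 ng/ml, and from 0 to 12 ng/ml their log2 ratios were -0.38 (Rps29 and Rpl39), -0.34 (Rps27), -0.33 (Rpl38) and -0.32 (Rps28).

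Coding length was then compared with the ratios of all core members, after this pattern had been seen. Coding lengths from GENCODE vM21, without the stop codon, ran from 75 nt (Rpl41) to 1257 nt (Rpl4), with a median of 456 nt. Over the 73 core members, Pearson's r between the log2 ratio from 0 to 12 ng/ml and log2 coding length was 0.76 and Spearman's rho 0.80. By step, r was 0.55 from FGFRi to 0 ng/ml, 0.11 from 0 to 0.75, 0.80 from 0.75 to 3 and 0.60 from 3 to 12 ng/ml. Against the length of the whole transcript, r was 0.42 over the full range. These are descriptions over members that share the same libraries. Over 3021 other genes with at least 50 CPM, r with coding length was 0.01 from 0 to 12 ng/ml. By step, r over the other genes was 0.05 from FGFRi to 0 ng/ml and 0.08 from 0 to 0.75. It was 0.02 from 0.75 to 3 and -0.19 from 3 to 12 ng/ml.

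**Figure D3:**
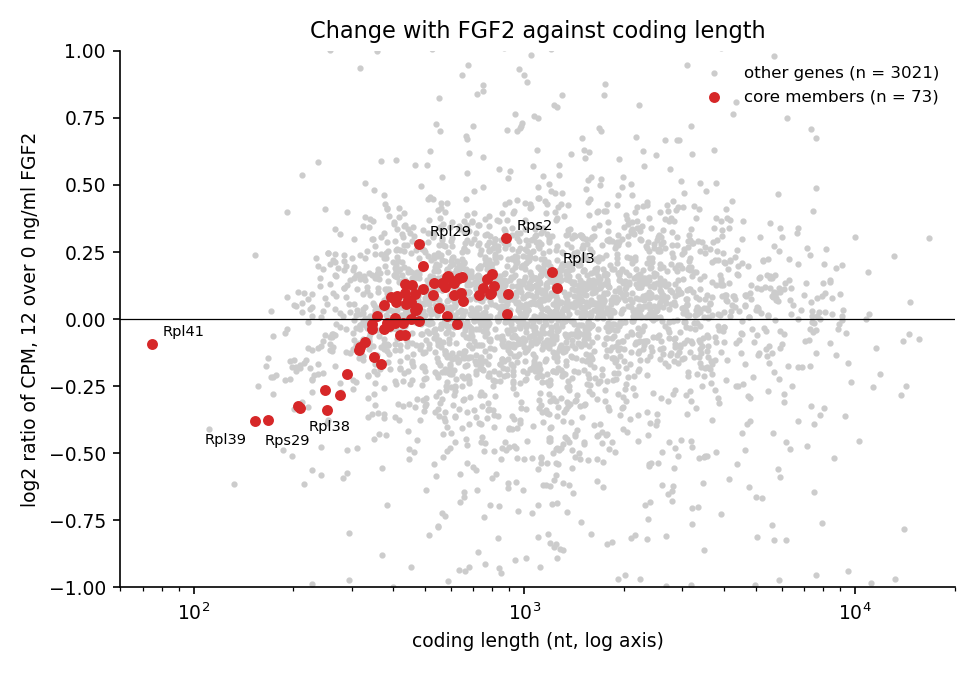
Log2 ratio of CPM at 12 over 0 ng/ml FGF2 (vertical axis) against coding length in nt (horizontal axis, log scale) for 73 core members in red and 3021 other genes in grey, of which 130 lie outside the axes. The 9 shortest core members all lie below 0, and those of 400 nt or more lie between -0.06 and 0.30.

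The 9 core members with a coding length under 300 nt (Rpl41, Rpl39, Rps29, Rps28, Rpl38, Rps21, Rps27, Rpl37a and Rpl37) had a median log2 ratio of -0.32 from 0 to 12 ng/ml, against 0.08 for the other 64. All 9 had their lowest level at 12 ng/ml, whereas 61 of the other 64 had it with FGFRi. Rpl41, the shortest of all, differed least, with 5512, 5672, 5942, 5321 and 5319 CPM from FGFRi to 12 ng/ml. Among 137 other genes with coding sequences under 300 nt, the median ratio was -0.06 (quartiles -0.22 and 0.10). From FGFRi to 0 ng/ml the order was reversed, with -0.19 for 139 such genes and -0.02 for the 9 core members. Core members of 300 to 400 nt had a median of -0.03 from 0 to 12 ng/ml, those of 400 to 600 nt 0.07, those of 600 to 1000 nt 0.11, and the 2 longest 0.15.

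**Figure D4:**
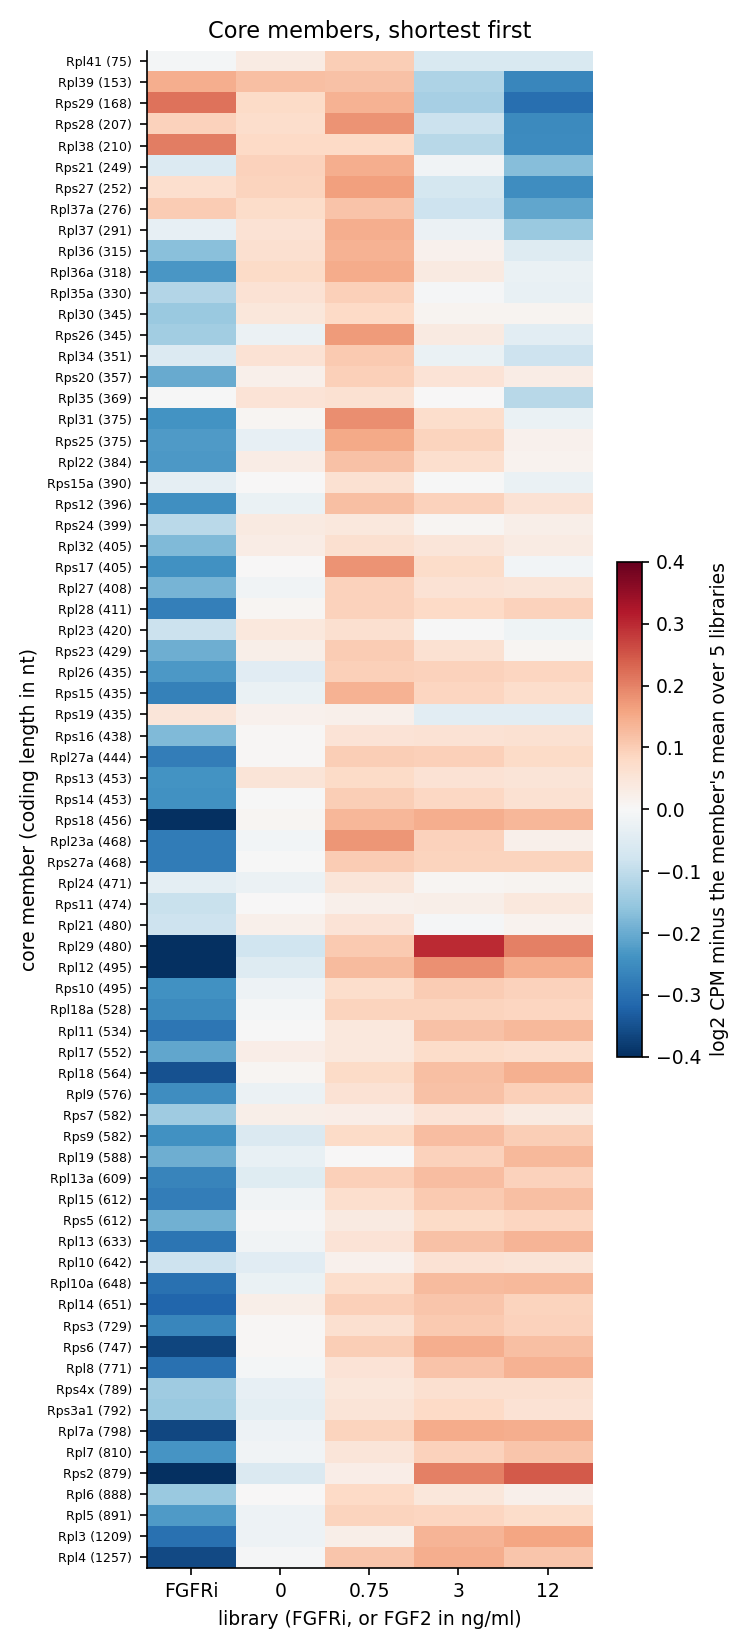
Log2 CPM of 72 core members (rows, shortest coding sequence at the top, coding length in nt in parentheses) in the 5 libraries (columns), relative to each member's mean over the libraries. Colors end at -0.4 and 0.4. The 9 shortest members are red at 0 and 0.75 ng/ml and blue at 12 ng/ml, and most others are bluest with FGFRi.

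Coding sequences of 3 members among these 9 show how small these reading frames are. They are given from start to stop codon, from GENCODE vM21 on GRCm38.
Rpl41, chromosome 10, gene at 128548114 to 128549305, minus strand, 25 codons: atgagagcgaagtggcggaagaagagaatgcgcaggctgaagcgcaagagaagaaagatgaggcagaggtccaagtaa
Rpl39, chromosome X, gene at 37082520 to 37085402, minus strand, 51 codons: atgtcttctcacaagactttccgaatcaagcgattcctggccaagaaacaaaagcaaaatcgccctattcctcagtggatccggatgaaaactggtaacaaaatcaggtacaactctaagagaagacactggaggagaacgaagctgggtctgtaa
Rpl38, chromosome 11, gene at 114668524 to 114672331, plus strand, 70 codons: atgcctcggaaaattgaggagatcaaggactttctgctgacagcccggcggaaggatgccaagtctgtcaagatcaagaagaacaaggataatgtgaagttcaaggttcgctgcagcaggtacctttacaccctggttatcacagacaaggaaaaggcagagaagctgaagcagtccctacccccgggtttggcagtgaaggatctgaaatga

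Together the 9 shortest members made up 14.1% of core UMIs with FGFRi, 12.3% without FGF2, and 12.2, 10.7 and 10.0% with rising FGF2. Per cell, their share was taken of the UMIs of all 82 ribosomal protein genes, and the median cell showed nearly the same values. The interquartile range was 13.4 to 14.6% in FGFRi cells and 9.54 to 10.5% at 12 ng/ml, which is the spread of cells within 1 library each. The set was formed by length after the fall of some of its members with FGF2 had been seen, so its lower share at 12 ng/ml restates that fall. In cells of 20000 to 30000 UMIs, the summed shares of core UMIs were 14.3, 12.7, 12.4, 10.98 and 10.2%. Within libraries, the per-cell share was lower in deeper cells (Spearman's rho -0.49 to -0.35) and higher in cells with more mitochondrial UMIs (0.17 to 0.31). Cdh1-only and Cdh2-only cells had similar summed shares of core UMIs (14.1 and 14.2% with FGFRi, 12.3 and 12.6% at 0, 12.1 and 12.4% at 0.75, 10.6 and 10.9% at 3, and 9.88 and 10.2% at 12 ng/ml), always slightly lower in Cdh1-only cells.

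Related genes departed from the core members in their own ways. Rps27l, a paralog of Rps27 and a known p53 target, was the only expressed related gene lower without FGF2 than with FGFRi beyond counting error, at 1097, 924.4, 940.0, 1050 and 1089 CPM from FGFRi to 12 ng/ml. Its log2 ratio was -0.25 (95% interval -0.26 to -0.23) from FGFRi to 0 ng/ml and 0.24 (0.22 to 0.25) from 0 to 12 ng/ml. Rps27 was nearly level from FGFRi to 0 ng/ml, at 0.02, and went in the opposite direction from 0 to 12 ng/ml, at -0.34. Rpl7l1, a large subunit assembly factor, rose from 69.9 to 99.5 CPM from FGFRi to 0 ng/ml (log2 0.51, 0.45 to 0.57) and reached 124.0 CPM at 12 ng/ml, just under 25% above 0 ng/ml. Rpl22l1, the paralog of Rpl22, stayed between 775.2 and 857.6 CPM, and Rpl36al, a retrogene of Rpl36a, between 733.2 and 847.2 CPM. Rps19bp1, which encodes a partner of Rps19, lay between 67.3 and 74.2 CPM.

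Rps27rt, a retrogene, fell from 111.1 CPM without FGF2 to 85.2 CPM at 12 ng/ml (log2 -0.38). Its coding sequence is identical to that of Rps27 over 255 bases, and 88.4% of the 50-base stretches at its 3′ end occur in other genes, so its counts cannot be told apart with certainty from those of Rps27. Rpl3l, Rpl39l and Rpl10l, paralogs known from muscle and testis, had 4, 1 and 0 UMIs over all 5 libraries. For Rpl10l, 0 of 321559590 UMIs allows up to 3 counts over the 5 libraries together.

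Rps27l can be told apart from Rps27 by sequence, as 61 of 255 coding bases differ (76.1% identity). In the coding sequence of Rps27l, the bases that differ from Rps27 are in capitals.
Rps27, chromosome 3, gene at 90212522 to 90213651, minus strand: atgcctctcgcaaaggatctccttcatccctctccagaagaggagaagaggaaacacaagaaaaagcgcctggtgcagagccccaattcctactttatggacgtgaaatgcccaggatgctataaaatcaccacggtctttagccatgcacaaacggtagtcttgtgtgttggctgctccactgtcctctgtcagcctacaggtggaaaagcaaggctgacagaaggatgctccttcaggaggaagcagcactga
Rps27l, chromosome 9, gene at 66946086 to 66949516, plus strand: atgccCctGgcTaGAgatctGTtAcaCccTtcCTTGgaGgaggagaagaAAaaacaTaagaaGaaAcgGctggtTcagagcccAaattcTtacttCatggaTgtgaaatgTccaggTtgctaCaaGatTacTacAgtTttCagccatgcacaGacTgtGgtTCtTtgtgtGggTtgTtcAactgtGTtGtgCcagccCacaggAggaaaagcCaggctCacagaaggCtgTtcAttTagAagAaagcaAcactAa

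Spread between cells was measured per member as a dispersion index, the variance of its UMIs around a constant share of the cell's ribosomal protein UMIs, where 1 is the value of pure sampling. The median over core members was 1.92 with FGFRi, 2.03 without FGF2, and 1.85, 1.76 and 1.73 with rising FGF2. Most members thus followed the total of ribosomal protein UMIs closely. Because the index grows with the level of a gene, low members such as Rpl29 and Rps27rt lay near 1.

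Rps27l had the highest mean index, 5.23, although its level was a few times below that of most core members. This rank depends on the base, since around a constant share of total UMIs its mean index was 4.27, below Rps26 (9.44), Rps20 (8.87), Rps27a (8.39), Rpl13 (6.43) and Rps14 (6.42). Its index was 7.76 with FGFRi and 6.06, 4.86, 4.02 and 3.45 along the FGF2 series. Rps26, of the mRNA exit channel, had the highest index of the core members in every library, at 5.01, 7.88, 4.62, 4.13 and 4.24, while its level of 3108 to 3849 CPM was near the median of core members. Rps14, lost in a human myelodysplastic syndrome, followed with a mean of 3.95, Rpl41 with 3.53 and Rps20 with 3.38. Rps14, Rps26 and Rps27l were among the 5 highest in each of the 5 libraries. Of 50-base stretches in their 3′ ends, 62.6% are shared with other genes for Rps26, 40.7% for Rps14 and 13.35% for Rps27l.

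**Figure D5:**
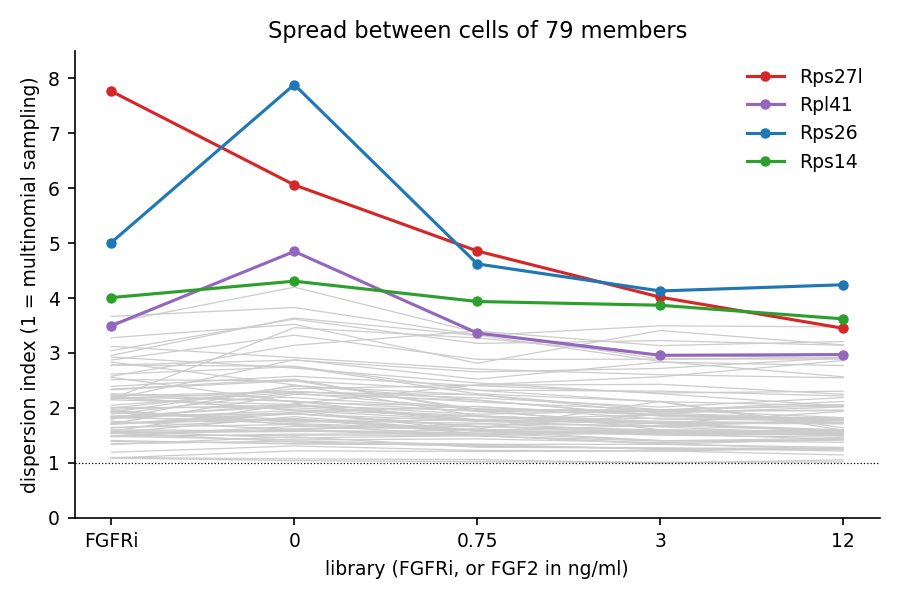
Dispersion index (vertical axis, dotted line at 1 for pure sampling) of the 79 members with at least 50 CPM in every library, by library (horizontal axis), with the 4 members of highest mean index in color and the others in grey. Rps27l falls from 7.76 with FGFRi to 3.45 at 12 ng/ml FGF2, and Rps26 peaks at 7.88 without FGF2.

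Cadherin classes differed in several members beyond the total. As a share of ribosomal protein UMIs, Rps27l was higher in Cdh2-only than in Cdh1-only cells in 5 of 5 libraries, with log2 ratios of 0.63 with FGFRi, 0.54 for the 3 lower doses and 0.36 for the highest. With FGFRi it was at 1273 CPM in Cdh2-only and 820.6 CPM in Cdh1-only cells. Rpl7l1 (mean log2 ratio 0.25), Rpl27 (0.19) and Rpl31 (0.16) were also higher in Cdh2-only cells in 5 of 5 libraries. The reverse held in 5 of 5 libraries for Rps20 (mean -0.17), Rpl10 (-0.14) and Rpl39 (-0.11). Rps20 was at 8160 CPM in Cdh1-only and 6926 CPM in Cdh2-only cells without FGF2. Rps26 differed little, with a mean of 0.07, a smaller ratio than those of Rps27l and Rps20. Many other members, Rps26 among them, also kept 1 direction in 5 of 5 libraries, so that count does not set the named members apart. The members named here were chosen after their values had been seen.

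Cells with high levels of the p53 targets Cdkn1a, Mdm2, Ccng1, Phlda3 and Sesn2 had a lower share of ribosomal protein UMIs. In the 20% of cells with the highest share of these targets, the median ribosomal protein share was 21.6% with FGFRi and 24.7, 27.7, 27.6 and 27.1% along the FGF2 series, against 24.8, 28.2, 29.3, 28.5 and 28.1% in the other cells. These cells were also deeper, with a median of 32436 against 23185 UMIs with FGFRi and 29412 against 26870 UMIs at 12 ng/ml. The part of depth in the difference was not tested. Both shares are taken of the same total, so a cell with fewer ribosomal protein UMIs has a higher share of other genes by construction. Rps27l was the member with the largest excess in these cells in each library, with log2 ratios of its share of ribosomal protein UMIs of 0.95, 0.63, 0.55, 0.42 and 0.36 from FGFRi to 12 ng/ml. With FGFRi it was at 1598 CPM in these cells and 932.9 CPM in the others. Rps26 had the lowest mean ratio of the 79 members, with -0.22 with FGFRi and without FGF2 and -0.14 to -0.18 at the other doses. This split of cells was added after the values of Rps27l had been seen.

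Other lists were also compared from 0 to 12 ng/ml, where 9.68% of all genes tested were higher and 13.7% lower, and most of them hold too few genes for their counts to be read against these shares. Of 17 ribosome biogenesis genes tested, 7 were at least 25% higher and 0 lower, with a median log2 ratio of 0.27, and Dkc1 rose from 112.8 to 171.1 CPM. Mycn rose from 35.4 to 54.2 CPM (log2 0.62), while Myc was at 13.3 and 7.3 CPM. Of the other TOP mRNAs, 2 of 9 were higher, Npm1 (log2 0.43) and Pabpc1 (0.42). Elongation factors (0 of 5, median 0.16) and ribosomal proteins the rule does not match (0 of 7, median 0.12) did not pass the rule of size. Of the X-linked members 1 of 4 was lower, Rpl39, and of the Diamond-Blackfan genes 0 of 9 were past the rule. Eif4ebp1, an inhibitor of translation controlled by mTOR, was the 1 of 3 mTOR list genes tested that was higher (log2 0.48), and of the p53 targets 2 of 4 were lower, Mdm2 (-0.32) and Phlda3 (-0.35). Among 61 mitochondrial ribosomal protein genes, 1 was higher and the median was 0.10.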

How the data were processed

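The authors sequenced 1 10x 3′ v3.1 library per condition, aligned reads to mm10 and deposited raw UMI counts per gene and barcode without their cell filters. Per the file headers, Cell Ranger 5.0.1 made the matrices (the methods name an earlier version). Barcodes with at least 2500 genes and at most 10% mitochondrial UMIs were used, between 47824660 and 81538748 UMIs per library. CPM is the summed UMIs of a gene per 1000000 UMIs of the library. Ratios carry exact conditional 95% intervals, shares exact binomial ones. These cover counting error only. Conditions were not tested against each other, as each has 1 library. The rule of size was a ratio of 1.25 in either direction. All 82 members were matched in GENCODE vM21 (GRCm38), used for positions and coding lengths. No doublets were removed.

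Named were all related genes, the 5 highest and lowest core members by level and by ratio from FGFRi to 0 and from 0 to 12 ng/ml, and the 5 of highest dispersion, plus list members. Members and lists were chosen with earlier results of these data known. Genes named for cadherin classes, p53 targets or coding length were chosen after their values were seen. Scripts were tested on simulated data. Python 3.11.15, NumPy 2.4.6, SciPy 1.17.1, pandas 2.3.3, Biopython 1.88 and edgeR 4.0.16 (R 4.3.3, TMM factors only) were used. Some items are not reported here.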

Additional observations from a re-analysis of the deposited data

Results flagged for a closer look

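Signal appeared in rows outside the comparisons: of the 5 pseudogenes that the rule leaves out, 3 held UMIs in the retained cells. Rpl9-ps6 had 29661 UMIs over the 5 libraries, Rpl10-ps3 had 26404 and Rpl36a-ps1 had 8353, while Rpl9-ps1 and Rpl36-ps4 had 0. Their levels ran from 71.9 to 102.2 CPM for Rpl9-ps6, from 71.5 to 89.3 CPM for Rpl10-ps3 and from 20.8 to 29.6 CPM for Rpl36a-ps1. The 3 with UMIs were lowest with FGFRi, as were 61 of the 73 core members, Rpl9, Rpl10 and Rpl36a among them. All 50-base stretches (100%) of the Rpl36a 3′ end occur in other genes, Rpl36a-ps1 among them.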

How the results depend on the processing

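No paired analysis was possible because there is 1 library per condition, and for the same reason no replicate could be left out. Of 562 alternative values, 353 moved by less than the counting interval (for counts, by less than 1.5 times). Among 372 for named members, 0 had the other sign than a main value past the rule of size. Only main values past that rule could be counted in this way, and many ratios of named members were not past it. Shares of ribosomal protein UMIs with FGFRi and at 0, 0.75, 3 and 12 ng/ml were 23.2, 26.6, 27.9, 27.5 and 26.97% with all barcodes, 24.4, 27.6, 28.9, 28.2 and 27.8% with cells weighted alike, 24.8, 28.1, 29.55, 29.0 and 28.6% without mitochondrial UMIs, 23.98, 27.1, 28.7, 28.1 and 27.65% without the deepest 5% of cells, and, chosen after seeing the data, 24.2, 28.2, 29.4, 29.0 and 28.4% in cells of 20000 to 30000 UMIs. At most 5% mitochondrial UMIs gave 23.6, 26.7, 28.4, 27.9 and 27.4%, and a median per cell of 23.9% with FGFRi. The order of the 5 summed shares was the same under each of these 6 alternatives.

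The median log2 ratio of core members from FGFRi to 0 ng/ml was 0.21 with at most 5% mitochondrial UMIs, 0.23 with all barcodes, 0.21 without mitochondrial UMIs, 0.23 with TMM factors and 0.21 without the deepest cells. From 0 to 0.75 ng/ml these gave 0.087, 0.071, 0.074, 0.071 and 0.080, and 0.067 with cells weighted alike. From 0.75 to 3 ng/ml they gave -0.012, -0.011, -0.012, -0.029 and -0.017, and -0.026 (-0.0255) with cells weighted alike. From 3 to 12 ng/ml the values were -0.021 (5% limit), -0.019 (all barcodes) and -0.011 (TMM), and from 0 to 12 ng/ml 0.062, 0.051, 0.042 (TMM), 0.058 (deepest cells out) and 0.042 (weighted alike).

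At a fold of 1.1, 52 of 73 core members were higher and 1 lower from FGFRi to 0 ng/ml (of all genes tested, 37.4% higher and 36.5% lower), 11 higher and 0 lower from 0 to 0.75 (15.6% and 21.7%), 2 higher and 9 lower from 0.75 to 3 (13.6% and 10.8%), 0 higher and 5 lower from 3 to 12 (5.27% and 4.63%), and 11 higher and 10 lower from 0 to 12 ng/ml (30.7% and 25.5%). At a fold of 1.5, 0 were higher from FGFRi to 0 (8.41% of all genes) and 0 lower from 0 to 12 ng/ml (6.4%). After division by the median core ratio, 0 were higher and 2 lower from FGFRi to 0 ng/ml. With total UMIs in place of ribosomal protein UMIs, median dispersion indices were 4.04, 4.57, 3.58, 3.25 and 3.06, and Rps27l no longer had the highest mean index. After thinning, the cadherin difference was 0.203 percentage points at 3 ng/ml and -0.927 percentage points at 12 ng/ml. The cause of these moves was not tested.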
